A study of Homo sapiens with 42 samples.

Results

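The genes described here are 10 feedback regulators and outputs of the ERK kinase pathway: DUSP4, DUSP5, DUSP6, SPRY2, SPRY4, SPRED1, SPRED2, ETV4, ETV5 and PHLDA1. They were chosen by symbol, and each symbol matched 1 of the 58243 gene IDs in the mRNA and nuclear count tables. All data came from K562, an established cell line of chronic myeloid leukemia which grows on signals from the BCR-ABL1 kinase. Cultures were untreated (CTRL) or received 1 μM imatinib (IM), which inhibits that kinase, 5 μM JTE-607 (JTE), which inhibits the 3′-end nuclease CPSF73, or 110 mM KCl, a hyperosmotic shock. Poly(A) mRNA of whole cells was sequenced for CTRL, IM 1h, IM 6h, IM 18h, JTE 1h, JTE 6h, JTE 18h, KCl 1h and KCl 3h. Nuclear RNA depleted of rRNA was sequenced for CTRL, IM 1h, IM 18h, JTE 1h and KCl 1h. Each of these 14 groups had 3 biological replicates, and all exposures ended together, so a single set of untreated cells served every time point of a fraction. All groups are of a single cell line, which carries BCR-ABL1 in controls and treated cells alike.

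ERK is the last kinase of a cascade that runs from RAS through RAF and MEK, and BCR-ABL1 feeds into it through the adaptors GRB2 and GAB2. Active ERK raises the transcription of genes whose products in turn restrain the pathway: phosphatases of the DUSP family remove phosphate from ERK, while Sprouty (SPRY) and SPRED proteins act upstream at the level of RAS and RAF. The ETS factors ETV4 and ETV5 are transcribed downstream of the same signal, so the RNA levels of these genes are commonly read as a gauge of ERK output.

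Stretches before a RefSeq start are shown for 3 of the inhibitor genes that fell under imatinib. SPRED1 also fell, but its window held 0 bases outside annotated exons. Sequences are from RefSeq on GRCh38, on the minus strand, written 5′ to 3′, and limited to bases outside the annotated exons of the count tables. The RefSeq promoter table matched 6 of the 10 genes (SPRED1, SPRED2, SPRY2, SPRY4, DUSP6 and PHLDA1) with 9 windows of 250 bases before a start. The first stretch adjoins the annotated SPRED2 gene of the count tables at chr2:65432638-65432849, the second lies before a RefSeq start of SPRY2 at chr13:80341127-80341376, beyond the gene end of the tables at 80340951, and the third lies between exons of SPRY4 at chr5:142324418-142324497.
SPRED2: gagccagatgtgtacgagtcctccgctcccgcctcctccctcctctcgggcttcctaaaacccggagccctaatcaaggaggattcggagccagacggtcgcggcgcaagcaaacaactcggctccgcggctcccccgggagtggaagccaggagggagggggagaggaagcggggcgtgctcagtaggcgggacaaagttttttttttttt
SPRY2: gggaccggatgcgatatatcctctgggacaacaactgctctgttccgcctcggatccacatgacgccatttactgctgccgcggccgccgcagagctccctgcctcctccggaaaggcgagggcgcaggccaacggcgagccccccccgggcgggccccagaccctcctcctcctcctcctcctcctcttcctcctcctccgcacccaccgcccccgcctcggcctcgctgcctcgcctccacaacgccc
SPRY4: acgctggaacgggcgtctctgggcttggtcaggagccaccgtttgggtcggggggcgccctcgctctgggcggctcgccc

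None of these 3 stretches held any of the motifs searched on both strands, so no base is capitalised. The ETS motif was searched only as the string CGGAAG, which lay in the windows of DUSP6 and PHLDA1 and in 16.5% of all 35116 windows. The shorter string GGAA, which all 3 printed stretches hold, was not searched. The AP-1 motif TGANTCA (6.57% of all windows), the cAMP response element TGACGTCA (1.65%), the STAT motif TTCNNNGAA (6.57%) and the CArG box (1.16%) lay in no member's window. A match describes letters only, and no match says only that those letters are not in the window.

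Counts were deposited for 27 mRNA and 15 nuclear libraries. Library totals lay between 16439848 and 22505595 in mRNA except for KCl 1h replicates 2 and 3 (up to 62953314), and between 16175394 and 25103205 in nuclear RNA. The 12 K562 markers (GATA1, KLF1 and the embryonic and fetal globins among them) averaged at least 1 CPM (counts per 1000000 counted read pairs) in both fractions. Of the 17 markers of fibroblasts, lymphocytes, monocytes and epithelium, 12 averaged under 1 CPM in mRNA. KRT5, CDH1, COL1A1, COL3A1, CD3E, CD79A, MS4A1 and CD14 were among them, and EPCAM alone carried the epithelial sum of 75.0 to 107 CPM. MALAT1 and NEAT1, which stay in the nucleus, summed to 2028 to 3683 CPM in mRNA libraries and 12280 to 18760 CPM in nuclear ones.

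In untreated cells the most abundant of the 10 transcripts per length were SPRED2 and ETV4. Per kilobase of annotated exon, the mRNA level was 19.8 ± 0.287 CPM for SPRED2, 15.7 ± 2.27 for ETV4 and 7.86 ± 1.35 for SPRY4 (SD, n = 3). ETV5 at 5.58 ± 1.62 and SPRED1 at 5.57 ± 0.698 were indistinguishable, and SPRY2 (2.36 ± 0.13), DUSP5 (1.41 ± 0.383) and PHLDA1 (0.176 ± 0.0281) were lower. The authors' alignment removed read pairs spanning annotated introns longer than 10000 bases. That loss can lower SPRED1, SPRED2, ETV4 and ETV5 against the other genes in this order. The same 8 genes passed the low-count filter in both fractions.

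DUSP4, a nuclear ERK phosphatase, and DUSP6, a cytoplasmic one, both genes that many ERK-driven cells express strongly, were at or near 0 in every group. DUSP4 never exceeded 0.217 CPM in mRNA or 0.571 CPM in nuclear RNA, and 5 of 27 mRNA libraries held no count. DUSP6 never exceeded 0.432 CPM in mRNA or 0.208 CPM in nuclear RNA, and 5 mRNA and 4 nuclear libraries held none. A library without a count still allows a level of 3 counts, between 0.0477 and 0.182 CPM in mRNA and between 0.12 and 0.185 CPM in nuclear RNA. DUSP4 held 0.118, 0.214 and 0.137 CPM at JTE 6h and 0.217, 0.183 and 0.11 CPM at JTE 18h, all above its CTRL libraries (0 to 0.056 CPM), from 2 to 4 counts a library. Neither gene passed the low-count filter, so neither was tested. Of the exon bases of DUSP6, 40.5% also belong to an unnamed gene on the opposite strand, and read pairs there were left out by the authors' counting, so its level is a lower limit. That opposite gene held no count in any library.

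**Figure D1:**
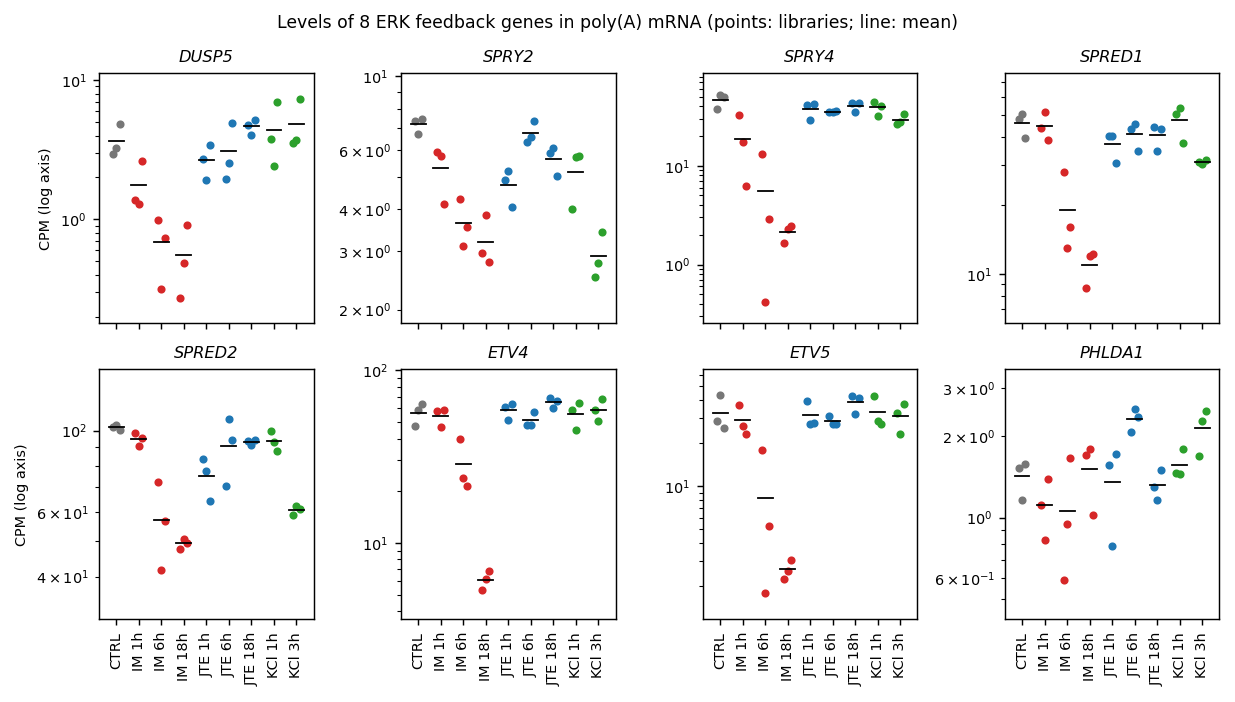
Level in CPM (log axis, a separate range for each gene) of the 8 tested genes in each of the 27 mRNA libraries (points) with the mean of each group of 3 (line). In 7 genes, PHLDA1 being the exception, the IM 6h and IM 18h libraries lie below every CTRL library.

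The first comparison asked how these genes moved as BCR-ABL1 was inhibited for 1, 6 and 18 h. A gene was called when edgeR's quasi-likelihood test gave a Benjamini-Hochberg adjusted p under 0.05 and the log2 fold change passed 0.6 in either direction. At 1 h no member was called in mRNA, where 3 of 18095 genes were called lower (0.0166%) and none higher. DESeq2 called none either, and 3 of the 8 had an unadjusted edgeR p under 0.05, all with values below CTRL. At 6 h, 7 of the 8 tested members fell, while 745 of all genes (4.12%) were called lower and 5.82% higher. At 18 h the same 7 were called lower, beside 2397 genes (13.2%). The median log2 fold change of the 8 went from -0.27 at 1 h to -1.19 at 6 h and -2.43 at 18 h, beside medians of 0.00, 0.04 and 0.04 over all genes. In bulk RNA, fewer cells making a transcript and less of it per cell cannot be told apart.

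SPRY4, a Sprouty protein that blocks RAS activation, had the largest fall at 6 h and 18 h among the members. Its mRNA stood at 37.4, 52.2 and 50.2 CPM in the CTRL libraries and at 32.8, 17.5 and 6.23 CPM in the IM 1h libraries. It stood at 13.3, 0.42 and 2.90 CPM at IM 6h and at 1.65, 2.28 and 2.43 CPM at IM 18h. The IM 1h libraries were all below CTRL but spread widely, with replicate 1 near CTRL, and by 18 h the libraries were close to each other. The log2 fold change was -1.32 (SE 0.55, edgeR adjusted p 1) at 1 h, -3.11 (SE 0.60, adjusted p 0.0013) at 6 h and -4.49 (SE 0.67, adjusted p 2.13e-05) at 18 h. The 6 h value went to -4.92 without IM 6h replicate 1, and in a fit of only the 2 groups its adjusted p was 0.0903. SPRY2, its relative, was already much lower in CTRL and fell less. It stood at 7.36, 6.73 and 7.45 CPM in CTRL, at 4.31, 3.09 and 3.53 CPM at IM 6h and at 2.96, 3.85 and 2.77 CPM at IM 18h. The 3 untreated libraries lay above all imatinib libraries, and the log2 fold change was -1.03 (SE 0.19, edgeR adjusted p 0.000551) at 6 h and -1.20 (SE 0.19, adjusted p 2.53e-05) at 18 h.

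SPRED1 and SPRED2, which recruit the RAS inactivator neurofibromin to the membrane, showed no call at 1 h and fell by different amounts later. SPRED1 stood at 47.9, 50.6 and 39.5 CPM in CTRL, at 43.95, 51.6 and 39.0 CPM at IM 1h, at 28.1, 13.0 and 16.1 CPM at IM 6h and at 8.61, 11.9 and 12.2 CPM at IM 18h. Its IM 1h and CTRL libraries overlapped, and its log2 fold change was -1.33 (SE 0.21, edgeR adjusted p 0.000137) at 6 h and -2.11 (SE 0.22, adjusted p 1.13e-07) at 18 h. SPRED2 stood at 102, 103 and 100.4 CPM in CTRL, at 72.2, 41.7 and 56.8 CPM at IM 6h and at 47.6, 50.6 and 49.5 CPM at IM 18h. It was the smallest fall of the 7 at both times, with a log2 fold change of -0.90 (SE 0.14, edgeR adjusted p 0.000138) at 6 h and -1.09 (SE 0.15, adjusted p 2.74e-06) at 18 h. Read pairs spanning annotated introns longer than 10000 bases were removed by the authors' alignment, and both genes have 4 gaps between exons of that length, ETV5 has 2 and ETV4 has 1, so the levels of these 4 genes can be underestimates in every library.

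The ETS transcription factors ETV4 and ETV5 fell from 56.5 ± 8.2 and 32.4 ± 9.38 CPM in CTRL to 6.12 ± 0.768 and 2.62 ± 0.409 CPM at IM 18h (SD, n = 3). ETV5 stood at 28.5, 43.0 and 25.5 CPM in CTRL, at 17.9, 1.78 and 5.23 CPM at IM 6h and at 2.25, 2.55 and 3.06 CPM at IM 18h. Its log2 fold change was -2.01 (SE 0.43, edgeR adjusted p 0.00301) at 6 h and -3.66 (SE 0.49, adjusted p 5.1e-06) at 18 h. The 6 h value went to -3.31 without IM 6h replicate 1, and in a fit of only the 2 groups its adjusted p was 0.141. ETV4 stood at 47.5, 58.6 and 63.5 CPM in CTRL, 40.1, 23.8 and 21.4 CPM at IM 6h and 5.32, 6.19 and 6.85 CPM at IM 18h. At IM 18h ETV4 had the lowest adjusted p of the members, at a log2 fold change of -3.24 (SE 0.19, edgeR adjusted p 4.84e-11). Its 6 h value was -1.05 (SE 0.17, adjusted p 0.000174).

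DUSP5, a nuclear phosphatase specific to ERK, was the only phosphatase of the 3 with enough counts to test. It stood at 2.94, 3.26 and 4.82 CPM in CTRL, at 1.38, 1.29 and 2.63 CPM at IM 1h, at 0.997, 0.315 and 0.739 CPM at IM 6h and at 0.274, 0.489 and 0.906 CPM at IM 18h. All imatinib libraries lay below all CTRL libraries. The log2 fold change was -1.05 (SE 0.42, edgeR adjusted p 1) at 1 h, -2.46 (SE 0.48, adjusted p 0.000977) at 6 h and -2.75 (SE 0.50, adjusted p 0.000111) at 18 h.

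PHLDA1, a pleckstrin-homology domain protein induced by growth factor signalling, was the member not called under imatinib in mRNA. It stood at 1.53, 1.16 and 1.57 CPM in CTRL, at 0.589, 0.944 and 1.65 CPM at IM 6h and at 1.70, 1.79 and 1.02 CPM at IM 18h. The groups overlapped at each time, with log2 fold changes of -0.49 (SE 0.33, edgeR adjusted p 0.332) at 6 h and 0.05 (SE 0.32, adjusted p 0.908) at 18 h.

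At IM 6h, replicate 1 was the nearest to CTRL in the 7 genes that fell. Measures of the whole libraries also moved at IM 18h. The summed level of the 12 K562 markers was 4906 to 6193 CPM in CTRL and 12860 to 17470 CPM at IM 18h in mRNA, and the share of counts from mitochondrial genes was 10.0% to 10.9% in CTRL and 12.5% to 12.7% at IM 18h. Their part in the falls was not tested.

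**Figure D2:**
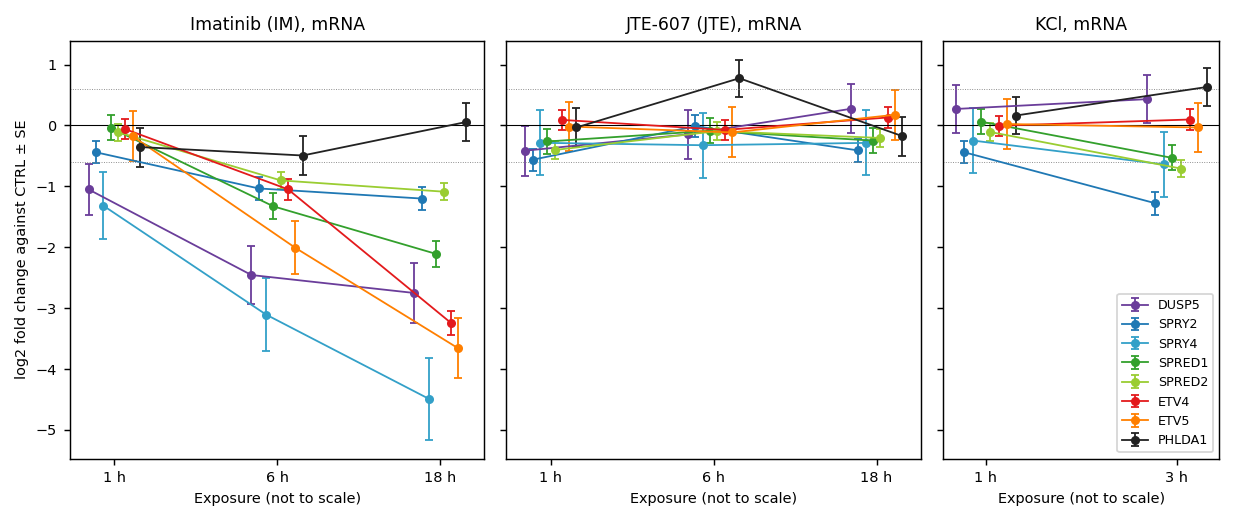
Log2 fold change against CTRL in mRNA (y axis, ± SE derived from edgeR's test, n = 3 per group) of the 8 tested genes by exposure time in h, for imatinib, JTE-607 and KCl. Dotted lines mark 0.6 in either direction. Under imatinib, 7 genes lie between -4.49 and -1.09 at 18 h and PHLDA1 at 0.05, whereas under JTE-607 every gene lies between -0.56 and 0.78.

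Compared directly, IM 18h was lower than IM 1h for the 7 genes, where 12.9% of all genes were called lower and 16.3% higher. The differences ran from -0.76 (SE 0.19, edgeR adjusted p 0.00273) for SPRY2 to -3.48 (SE 0.49, adjusted p 9.23e-06) for ETV5. DUSP5 (-1.70, SE 0.52, adjusted p 0.0106) lost its call without IM 1h replicate 3 or IM 18h replicate 1.

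The next question was whether JTE-607 lowered the same genes. It did not pass the test for any member in mRNA at 1, 6 or 18 h, when 0.464%, 6.47% and 2.09% of all genes were called lower and 0.387%, 6.73% and 3.29% higher. DESeq2 also called none. At an unadjusted edgeR p under 0.05, 2 members were below CTRL at 1 h (SPRY2 at -0.56 and SPRED2 at -0.40), 1 was above it at 6 h (PHLDA1 at 0.78) and 1 was below it at 18 h (SPRY2 at -0.41). SPRY4 stood at 35.4, 35.0 and 35.6 CPM at JTE 6h and at 43.1, 34.6 and 42.7 CPM at JTE 18h, the former all below the lowest CTRL library and the latter overlapping CTRL. PHLDA1 stood at 2.06, 2.52 and 2.34 CPM at JTE 6h, all above CTRL, with an edgeR adjusted p of 0.0808. With a replicate block it was called, at an adjusted p of 0.0479, or 0.0399 with the numbers of CTRL 1 and 2 exchanged. It was back at 1.3, 1.16 and 1.49 CPM at JTE 18h, a difference of -0.95 (SE 0.31, adjusted p 0.029) between these times, where 5.68% of genes were called lower and 7.76% higher. That call was lost in 5 of the 6 fits without 1 library, the exception being the fit without JTE 6h replicate 1.

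Both inhibitors were compared at equal times. At 6 h all 8 tested members were lower with imatinib than with JTE-607, beside 10.2% of all genes, with log2 differences from -0.81 (SE 0.14, edgeR adjusted p 0.000124) for SPRED2 to -2.78 (SE 0.59, adjusted p 0.00111) for SPRY4. PHLDA1 was among them at -1.27 (SE 0.31, adjusted p 0.00283), with 0.589 to 1.65 CPM against 2.06 to 2.52 CPM. In a fit of only these 2 groups SPRY4 and ETV5 lost their calls. At 18 h the 7 genes were lower, beside 13.6% of all genes, and PHLDA1 differed by 0.23. These comparisons and those with CTRL share the imatinib libraries.

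With KCl, SPRY2 and SPRED2 were called lower, and only at 3 h. At 1 h no member was called in mRNA by edgeR or DESeq2, where 2.94% of genes were called lower and 2.51% higher, and SPRY2 (-0.44) was the only member with an unadjusted p under 0.05. At 3 h both genes fell, beside 7.33% of all genes called lower and 4.55% called higher. SPRY2 stood at 3.996, 5.73 and 5.79 CPM at KCl 1h and at 2.50, 2.76 and 3.41 CPM at KCl 3h, with a log2 fold change against CTRL of -1.28 (SE 0.19, edgeR adjusted p 3.34e-05) at 3 h. SPRED2 stood at 99.7, 93.2 and 88.1 CPM at KCl 1h and at 58.8, 62.4 and 61.2 CPM at KCl 3h, a change of -0.71 (SE 0.14, adjusted p 0.000957). In both genes every KCl 3h library, and every KCl 1h library as well, was below every CTRL library. SPRED1 at 31.1, 30.3 and 31.6 CPM and SPRY4 at 26.3, 28.0 and 33.2 CPM were also below all CTRL libraries at 3 h without passing the test (adjusted p 0.0868 and 0.502). PHLDA1 at 1.68, 2.27 and 2.47 CPM was above all CTRL libraries at 3 h, also without passing the test (0.63, SE 0.30, adjusted p 0.183, unadjusted p 0.0482). DUSP5, ETV4 and ETV5 overlapped CTRL at both times. The direct comparison of KCl 3h with KCl 1h called SPRY2 (-0.84, SE 0.19, adjusted p 0.00774) and SPRED2 (-0.60, SE 0.14, adjusted p 0.0115) lower, beside 1.92% of all genes, with 1.37% called higher. SPRED2 was just past the threshold of 0.6, and neither gene was called without KCl 1h replicate 2 or without KCl 3h replicate 1. The share of mitochondrial counts was 5.84% to 7.21% at KCl 3h, and its part in these values was not tested.

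Nuclear RNA, taken from isolated nuclei, was measured at IM 1h and IM 18h as well. At IM 1h no member was called by the unpaired fit, where 9 of 21929 genes were called lower (0.041%) and 1 higher (0.00456%), and DESeq2 called 1 member, DUSP5, lower. DUSP5 and SPRY4 had an unadjusted edgeR p under 0.05. DUSP5 stood at 4.83, 4.63 and 4.39 CPM in nuclear CTRL and at 2.11, 2.45 and 1.24 CPM at nuclear IM 1h, a log2 fold change of -1.20 (SE 0.23, adjusted p 0.0575). SPRY4 stood at 66.3, 51.5 and 49.2 CPM in CTRL and at 21.9, 27.5 and 18.6 CPM at IM 1h, a change of -1.24 (SE 0.30, adjusted p 0.542). In both genes the libraries did not overlap. In the paired fit, with the replicate block that the nuclear libraries share with CTRL, both were called lower (DUSP5 -1.21, SE 0.19, adjusted p 0.000456; SPRY4 -1.25, SE 0.24, adjusted p 0.0371), and 69 genes were called in all. The other 6 members lay between -0.17 and 0.07 in the unpaired fit.

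At IM 18h the nuclear RNA of the same 7 genes fell, beside 15.4% of all genes called lower, and PHLDA1 rose, beside 17.2% called higher. The falls ran from -0.93 (SE 0.17, edgeR adjusted p 0.000154) for SPRY2 to -4.26 (SE 0.36, adjusted p 8.09e-07) for SPRY4. SPRY4 stood at 1.19, 5.03 and 3.03 CPM, ETV5 at 2.29, 6.03 and 5.19 CPM and ETV4 at 3.77, 15.5 and 11.3 CPM, and replicate 1 was the lowest in each. DUSP5 at 0.382, 0.797 and 0.618 CPM and SPRED1 at 8.27, 14.6 and 9.89 CPM were also below every CTRL library. Against nuclear IM 1h, the same 7 were lower (14.5% of all genes) and PHLDA1 was higher (16.8%).

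The response in nuclear RNA and in mRNA was then compared gene by gene with an interaction term. For IM 18h none of the 8 members differed by edgeR or DESeq2, where 0.0551% of genes were called higher and 0.0351% lower in nuclear RNA, and 1 (PHLDA1) had an unadjusted p under 0.05. For the 7 falling genes the difference between fractions lay between -0.22 and 0.33, with SEs of 0.15 to 0.50. For IM 1h neither tool called a member, edgeR called no gene in all (0%), and no member had an unadjusted p under 0.05. A p that misses the threshold does not show that the fractions responded alike.

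**Figure D3:**
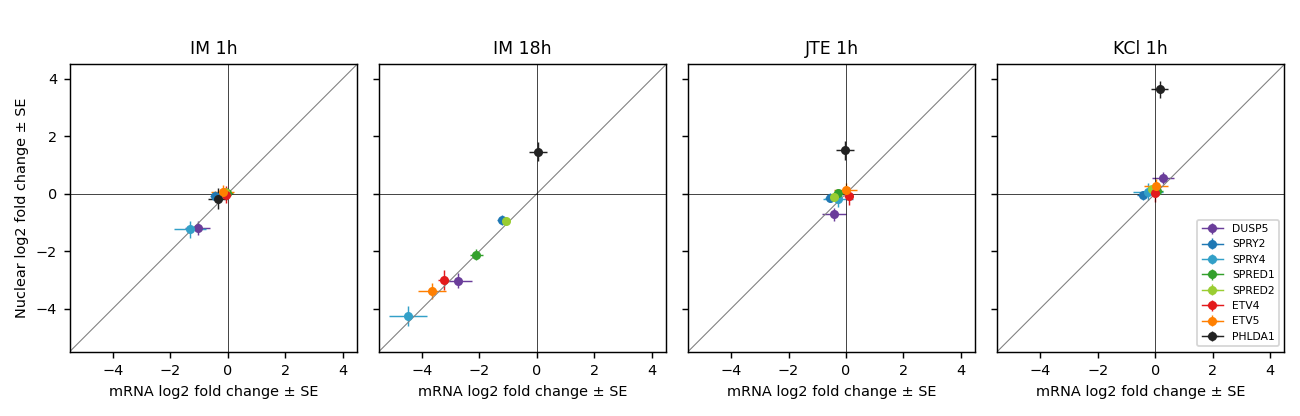
Log2 fold change against CTRL in nuclear RNA (y axis) against that in mRNA (x axis), each ± SE, for the 8 tested genes under the 4 treatments measured in both fractions; the diagonal marks equal change. At IM 18h 7 genes lie near the diagonal, and PHLDA1 lies above it at IM 18h, JTE 1h and KCl 1h.

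JTE 1h moved 2 members in nuclear RNA. DUSP5 fell to 2.62, 3.07 and 2.75 CPM, below every CTRL library, with a log2 fold change of -0.72 (SE 0.22, edgeR adjusted p 0.039), beside 1.51% of all genes called lower. This call was lost in each of the 6 fits without 1 library. The paired fit gave -0.71 (SE 0.18, edgeR adjusted p 0.00414). PHLDA1 rose, beside 7% of all genes called higher. SPRY4 stood at 56.9, 51.9 and 39.2 CPM and was higher than at IM 1h by 1.06 (SE 0.29, adjusted p 0.0428), beside 7.42% of all genes called higher and 0.584% lower. That call was lost in 5 of 6 fits without 1 library, the exception being the fit without JTE 1h replicate 3. In the paired fit the difference was 1.06 (SE 0.24, edgeR adjusted p 0.0179). For KCl 1h PHLDA1 alone was called, higher, beside 15.3% of all genes called higher and 8.5% lower. DUSP5 stood at 7.64, 6.995 and 5.51 CPM, above every CTRL library, with a change of 0.55 (SE 0.20, adjusted p 0.0515) that did not reach the threshold. In the paired fit its edgeR adjusted p was 0.00835, and the change of 0.55 (SE 0.17) stayed under 0.6.

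PHLDA1 was the member whose nuclear RNA rose. It stood at 1.42, 1.21 and 0.757 CPM in nuclear CTRL, at 0.93, 1.27 and 0.717 CPM at IM 1h, at 4.33, 2.09 and 3.40 CPM at IM 18h, at 3.46, 2.16 and 4.10 CPM at JTE 1h and at 12.4, 11.5 and 18.3 CPM at KCl 1h. The KCl libraries lay above all others, those of IM 18h and JTE 1h overlapped each other and lay above CTRL, and IM 1h overlapped CTRL. Against CTRL the log2 fold change was 3.63 (SE 0.30, edgeR adjusted p 3.16e-08) for KCl 1h, 1.51 (SE 0.32, adjusted p 0.00407) for JTE 1h and 1.46 (SE 0.32, adjusted p 0.00113) for IM 18h. In mRNA the KCl 1h libraries held 1.45, 1.45 and 1.79 CPM and overlapped CTRL. The KCl response was larger in nuclear RNA by 3.35 (SE 0.37, adjusted p 0.000412), where 0.588% of genes were called higher in nuclear RNA and 0.0806% lower. The difference was 1.56 (SE 0.47, adjusted p 0.512) for JTE 1h, where 0.0555% of genes were called higher and 0.00504% lower, and 1.45 (SE 0.46, adjusted p 0.616) for IM 18h.

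PHLDA1 differs from the other members in its position. It lies on the minus strand of chromosome 12 (76025447 to 76033932 on hg38), and the 3′ end of NAP1L1, a histone chaperone gene on the same strand, lies 2654 bases upstream of its annotated start. For the other 9 members the nearest upstream gene on the same strand with at least 10 CPM in untreated nuclear RNA ended 66446 bases away or more. NAP1L1 was expressed at 486 ± 63 CPM in nuclear CTRL and 546 ± 67.8 CPM at nuclear KCl 1h (SD, n = 3), a log2 fold change of 0.18 (SE 0.14, edgeR adjusted p 0.385). Counts per gene hold no reads between genes, and read pairs that began upstream of PHLDA1 and those from its own start cannot be told apart in them. PHLDA1 shares 16.5% of its exon bases with PHLDA1-AS1 and PHLDA1-DT on the opposite strand, and pairs touching those bases were left out. Over its other exon bases the counting ignored strand. The part of the neighboring genes in the rise was not tested.

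**Figure D4:**
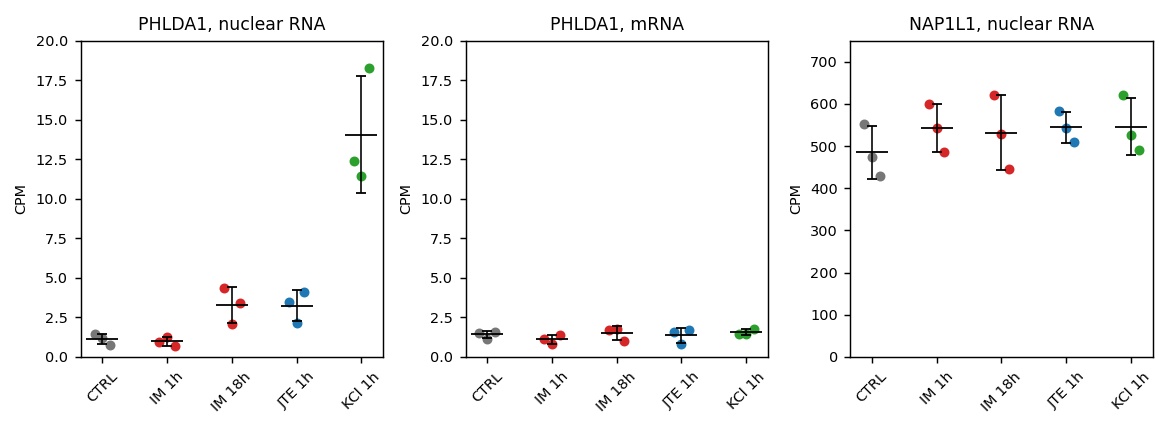
Level in CPM of PHLDA1 in nuclear RNA and mRNA and of its upstream neighbor NAP1L1 in nuclear RNA, in the 5 groups measured in both fractions (points are libraries, bars mean ± SD, n = 3). Nuclear PHLDA1 is highest at KCl 1h (11.5 to 18.3 CPM), while NAP1L1 stays between 428 and 622 CPM.

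The rest of the pathway was read from 4 lists. Among 25 genes of the ERK cascade itself, from the adaptor GRB2 and the RAS activator SOS1 to ELK1, all were tested. At IM 6h only ELK1, an ETS factor phosphorylated by ERK, was called lower (-0.61, SE 0.13, edgeR adjusted p 0.00161), beside 4.12% of all genes. At IM 18h 4 were lower and 2 higher, beside 13.2% and 17.2% of all genes, led by GAB2 (-0.91, SE 0.20, adjusted p 0.000817) and RASA1, a RAS inactivator (0.73, SE 0.18, adjusted p 0.00153). The median of the list was -0.23 at IM 18h, beside 0.04 over all genes and -2.43 over the 8 members. In nuclear RNA 3 were lower at IM 18h, beside 15.4% of all genes, with GAB2 at -0.73 and MAP2K1, the kinase above ERK, at -0.62. JTE-607 called 1 lower at 6 h (LZTR1, -0.61, SE 0.12, adjusted p 0.000577), beside 6.47% of all genes, and 1 higher at 18 h (RPS6KA1, a kinase that ERK activates, 0.62, SE 0.13, adjusted p 0.00305), beside 3.29%. At KCl 3h SOS1 alone was called, higher (0.74, SE 0.10, adjusted p 1.66e-05), beside 4.55% of all genes.

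Of 20 other ERK outputs, 17 were tested in mRNA. In this list 1 gene was called lower at IM 1h, 9 at IM 6h and 13 at IM 18h, beside 0.0166%, 4.12% and 13.2% of all genes, with 1 higher at IM 18h, beside 17.2%. EGR1, the zinc finger factor whose promoter ERK acts on through SRF and ELK1, was lower by -4.24 (SE 0.74, edgeR adjusted p 0.000603) at IM 6h and -5.99 (SE 0.85, adjusted p 1.46e-05) at IM 18h. FOS, the AP-1 subunit, was next at IM 6h (-2.64, SE 0.68, adjusted p 0.00993) and EGR3 at IM 18h (-4.54, SE 1.47, adjusted p 0.0149). EGR3 was near 0, at a mean of 0.018 CPM at IM 18h and 0.555 CPM (SD 0.787) in CTRL, and these libraries overlapped. Its nuclear change at IM 18h was -1.02 (SE 0.76, edgeR adjusted p 0.291), with overlapping libraries. The gene called at IM 1h was ZFP36, an mRNA decay factor, at -0.93 (SE 0.14, adjusted p 0.0114).

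JTE-607 also lowered genes of this list in mRNA, 1 at 1 h, 2 at 6 h and 1 at 18 h, beside 0.464%, 6.47% and 2.09% of all genes. They were ZFP36 at 1 h (-1.10, SE 0.15, edgeR adjusted p 0.000141), EGR1 (-2.01, SE 0.66, adjusted p 0.0378) and SPHK1, a sphingosine kinase (-0.83, SE 0.20, adjusted p 0.00339), at 6 h, and CCND1, which encodes cyclin D1, at 18 h (-1.37, SE 0.42, adjusted p 0.0418). In nuclear RNA 4 of 18 were lower at JTE 1h, beside 1.51% of all genes, with FOS at -1.37 (SE 0.40, adjusted p 0.0411) and ZFP36 at -0.90 (SE 0.14, adjusted p 0.00022).

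Under KCl, 5 of the 17 were called higher at 1 h and 8 at 3 h, beside 2.51% and 4.55% of all genes. FOS rose by 3.75 (SE 0.49, adjusted p 2.89e-05) at KCl 1h and by 4.37 (SE 0.50, adjusted p 1.7e-06) at KCl 3h, and its relative FOSB rose by 3.45 and 4.88. The median of the list at KCl 3h was 0.72, beside -0.28 for the 8 members and 0.02 over all genes. In nuclear RNA 18 were tested, and 9 were called higher at KCl 1h, beside 15.3% of all genes, led by FOSB at 3.42 and EGR3 at 3.24. EGR3 was near 0 in nuclear CTRL, at a mean of 0.193 CPM (SD 0.179). At nuclear IM 18h 11 were lower and 1 higher, beside 15.4% and 17.2% of all genes, led by EGR1 at -4.94 and CCND1 at -2.62, and at nuclear IM 1h ZFP36 alone was lower (-1.02), beside 0.041%.

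**Figure D5:**
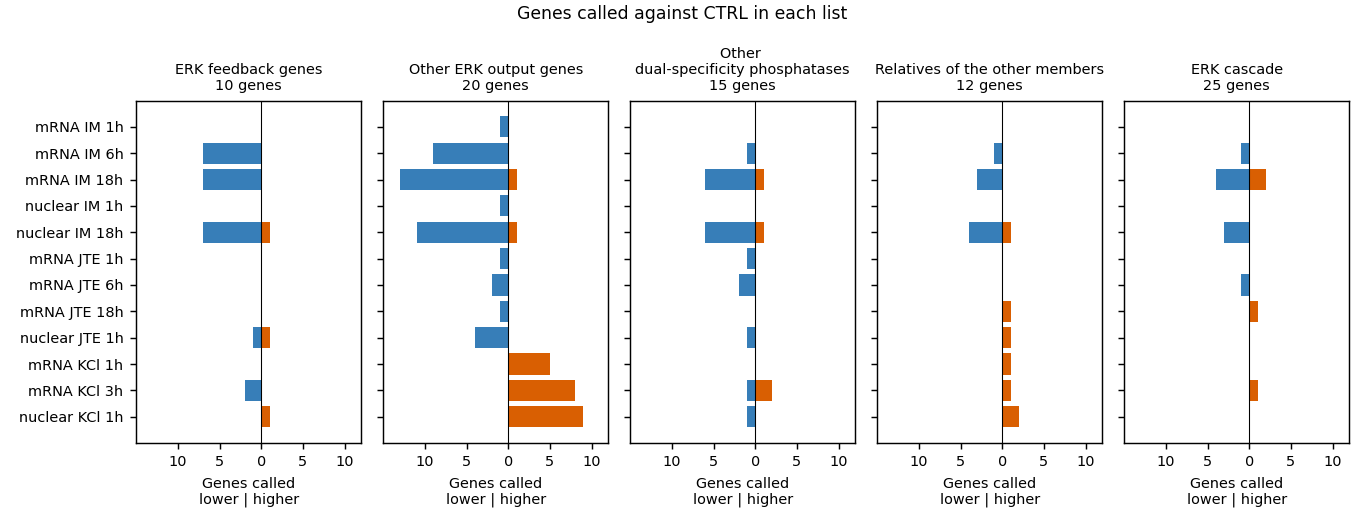
Number of genes called against CTRL in each comparison (rows), lower to the left and higher to the right of 0, for the 10 ERK feedback genes and the 4 other lists. Under KCl the other ERK outputs extend to the right (5, 8 and 9 genes). Of the feedback genes, 2 extend to the left at KCl 3h in mRNA and 1 to the right at KCl 1h in nuclear RNA.

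Among 15 other dual-specificity phosphatases, 14 were tested, and 1 was called lower at IM 6h, beside 4.12% of all genes, and 6 lower and 1 higher at IM 18h in mRNA, beside 13.2% and 17.2%. The one called higher was DUSP1 (0.84, SE 0.15, edgeR adjusted p 8e-05), a nuclear phosphatase of stress kinases and ERK. DUSP7, a cytoplasmic ERK phosphatase close to DUSP6, was lower by -0.85 (SE 0.23, edgeR adjusted p 0.0121) at IM 6h and by -1.14 (SE 0.23, adjusted p 0.000352) at IM 18h, when DUSP12 was lower by -0.95 (SE 0.12, adjusted p 1.67e-06). In nuclear RNA 6 were lower and 1 higher at IM 18h, beside 15.4% and 17.2% of all genes, with DUSP7 at -1.33 and DUSP1 at 1.00. DUSP1 rose at KCl 3h by 1.97 (SE 0.15, adjusted p 3.37e-09) and DUSP10, which acts on stress kinases, by 1.54 (SE 0.32, adjusted p 0.00137), beside 4.55% of all genes, and DUSP28 fell by -0.93 (SE 0.24, adjusted p 0.00692), beside 7.33%, while DUSP5 was not called. DUSP28 was also the one called in nuclear KCl 1h (-0.73, SE 0.20, adjusted p 0.00854), beside 8.5%, and with DUSP11 it was lower at JTE 6h (-0.71 and -0.63, adjusted p 0.0374 and 0.00292), beside 6.47%. DUSP1 fell at JTE 1h, by -0.77 (SE 0.15, adjusted p 0.0099) in mRNA and by -0.96 (SE 0.13, adjusted p 4.42e-05) in nuclear RNA, beside 0.464% and 1.51% of all genes.

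Of 12 relatives of the other members, the filter left 10 in mRNA and 9 in nuclear RNA. In mRNA 1 was lower at IM 6h and 3 at IM 18h, beside 4.12% and 13.2% of all genes, and 1 was higher at JTE 18h, KCl 1h and KCl 3h each, beside 3.29%, 2.51% and 4.55%. In nuclear RNA 4 were lower and 1 higher at IM 18h, beside 15.4% and 17.2%, 1 was higher at JTE 1h, beside 7%, and 2 at KCl 1h, beside 15.3%. PHLDA2, a relative of PHLDA1, fell by -1.82 (SE 0.41, edgeR adjusted p 0.00355) at IM 6h and by -3.17 (SE 0.46, adjusted p 9.78e-06) at IM 18h in mRNA, and by -2.50 (SE 0.24, adjusted p 8.27e-08) at IM 18h in nuclear RNA, where PHLDA1 rose. ETV1, the third factor of the ETV4 and ETV5 subfamily, was lower by -2.21 (SE 0.45, adjusted p 0.000435) at IM 18h and by -2.27 in nuclear RNA. ERRFI1, a feedback inhibitor of the EGF receptor, rose by 1.15 (SE 0.27, adjusted p 0.00766) at KCl 1h and by 3.495 (SE 0.28, adjusted p 5.86e-09) at KCl 3h, and by 1.33 (SE 0.20, adjusted p 2.35e-05) in nuclear RNA at KCl 1h. SPRED3 rose in nuclear RNA by 1.57 (SE 0.26, adjusted p 0.000417) at JTE 1h and by 1.35 (SE 0.27, adjusted p 0.000489) at KCl 1h. ETV7, an ETS factor outside that subfamily, rose by 3.58 (SE 0.55, adjusted p 0.000174) at JTE 18h. Its level was low, at a mean of 0.254 CPM in CTRL and 3.245 CPM at JTE 18h.

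The common pattern of the 8 tested members over the 9 mRNA groups was summarised by the mean of their centred log2(CPM + 0.5) values, which lay at 0.54 in CTRL, 0.10 at IM 1h, -1.01 at IM 6h and -1.56 at IM 18h and between 0.24 and 0.52 in the JTE-607 and KCl groups. Pearson's r with that mean was 0.988 for ETV5, 0.984 for SPRY4, 0.965 for SPRED1, 0.93 for DUSP5, 0.928 for ETV4 and 0.852 for SPRED2, and lower for SPRY2 (0.664) and PHLDA1 (0.328). Over the 5 nuclear groups r with the members' nuclear mean was 0.943 for SPRY2 and 0.263 for PHLDA1, and lay between 0.946 and 0.98 for the other 6. Among other genes with a mean of at least 10 CPM, those most like it were NR2F2 (r 0.998), HHEX (0.995), NCR3LG1 (0.993), ELOA (0.992) and RASSF3 (0.99), whose r over the 5 nuclear groups lay between 0.959 and 0.98. Each member is itself part of the mean it was correlated with and the other genes are not, so their r values are not comparable. The points of these correlations are group means from the same libraries, and the values are descriptions.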

How the data were processed

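Short-read RNA-seq was made from poly(A) mRNA of whole K562 cells (27 libraries) and from rRNA-depleted nuclear RNA (15 libraries). Per the labels and the study's methods, the authors trimmed and deduplicated the reads, aligned them to hg38 (GRCh38.p14 in the submitters' processing notes) with STAR, kept unique alignments with introns up to 10000 bases, and deposited raw counts of read pairs per gene from featureCounts. Pairs that touched exons of several genes were discarded as ambiguous, and no strand option was used although the libraries keep strand. The annotation release is not given in the sources used here, and 0 count columns lacked a sample. The report gives library totals. Intervals from counts and the limits for libraries without a count cover counting error only.

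Members and gene lists were chosen with earlier results of these data known. CPM used total counts; levels between genes were divided by exon length. The test was edgeR's, version 4.0.16 under R 4.3.3 (TMM, filterByExpr, robust quasi-likelihood), all libraries of a fraction in 1 fit, with 18095 genes in mRNA and 21929 in nuclear RNA. Each SE was derived from that test, as the absolute log2 fold change divided by the square root of its F statistic. Nuclear minus mRNA responses were interactions in 12 libraries. Values are given for all 10 members; of the other lists the called genes with the largest and second-largest change against CTRL are named, with a few others chosen after their values were seen, and the 5 genes most like the members' mean. p-values measure the spread between biological replicates. The tests were checked on simulated counts. Alternatives were DESeq2 1.42.0, RLE normalization, no low-count filter, only the 2 groups, a replicate block, thinned counts, TMM-scaled CPM and leaving out each library. In all groups the replicates differed beyond sampling noise (chi-square per gene from 2.23 to 54.15).

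Replicate numbers are in the titles. Deviations from group means correlated above 0.1 between nuclear CTRL and every nuclear group for each number (0.234 to 0.891), so the numbers were taken to pair those libraries. In mRNA no treated group met this with CTRL (lowest -0.367), although several treated groups met it with each other (IM 1h and JTE 1h, 0.825 to 0.845). The study's read table lists mRNA CTRL 1 and 2 the other way round from the count table. With these numbers exchanged, CTRL met it with every treated mRNA group (0.122 to 0.877) except JTE 18h (lowest 0.0545). Main fits use no replicate number, and a block with the exchanged numbers was added after seeing the data.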

Additional observations from a re-analysis of the deposited data

Results flagged for a closer look

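Effects that differed between time points or fractions by a direct test are listed here. In mRNA, 7 members were lower at IM 18h than at IM 1h, and in nuclear RNA 8 differed between these times, 7 lower and PHLDA1 higher. Between KCl 3h and KCl 1h 2 members differed in mRNA (SPRY2 and SPRED2, both lower), and between JTE 18h and JTE 6h 1 differed (PHLDA1, lower). The KCl 1h response of PHLDA1 was larger in nuclear RNA than in mRNA by a log2 difference of 3.35 (SE 0.37, adjusted p 0.000412 by edgeR). No explanation of these differences was tested.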

How the results depend on the processing

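Of 63 calls on members, the direction was the same under all alternatives run, and 32 of 802 recomputed values lost the call, 23 of them in fits without 1 library. Medians of the members stayed within the spread between replicates under all alternatives. The number of members called changed beyond 1.5 times as follows, and the cause was not tested. For nuclear IM 1h, with 0, it was 2 without a low-count filter, 2 with the replicate block, 1 with DESeq2 (DUSP5) and 1 with only the 2 groups (SPRY4). For mRNA IM 1h, with 0, it was 1 without the filter. For mRNA JTE 6h, with 0, it was 1 with the replicate block (PHLDA1, 0.78, adjusted p 0.0479) and 1 with the block on exchanged CTRL numbers (adjusted p 0.0399). For JTE 18h vs JTE 6h, with 1, it was 0 without the filter and with thinned counts, and 0 to 1 without 1 library. For KCl 3h vs KCl 1h, with 2, it was 1 with RLE normalization, DESeq2 or only the 2 groups, and 0 to 3 without 1 library. For nuclear KCl 1h, with 1, it was 2 with thinned counts and 1 to 2 without 1 library. For nuclear JTE 1h, with 2, it was 1 without any 1 library, and for nuclear JTE 1h vs IM 1h, with 2, it was 1 to 2. Elsewhere neither replicate block changed a call of a member.

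Counts over all genes moved by over 1.5 times in these cases. For mRNA IM 1h (3) they were 13 without the filter, 5 with either replicate block, 6 with DESeq2 and 1 with only the 2 groups, and for nuclear IM 1h (10) they were 48, 69 and 31 with the first 3. For mRNA JTE 1h (154) they were 237 without the filter, 258 with the block, 280 with the exchanged block and 5 with only the 2 groups. For mRNA JTE 18h (975) the count was 1575 with the exchanged block. For mRNA KCl 1h (986) the count was 465 with only the 2 groups, for KCl 3h vs KCl 1h (596) it was 294 with only the 2 groups and 990 without the filter, and for nuclear KCl 1h (5227) it was 8022 without the filter. For nuclear minus mRNA responses without the filter, with the block and with DESeq2, they were 61, 30 and 34 for IM 18h (18), 62, 19 and 30 for JTE 1h (12, and 5 with thinned counts) and 400, 310 and 393 for KCl 1h (141); for IM 1h (0) the count was 2 without the filter. DUSP4 and DUSP6, with a few counts a library, were not tested at this depth.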
